A study of Mus musculus with 24 samples.

Results

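The histone genes of this series were followed across a knockout of E4F1, a zinc finger transcription factor, in mouse embryonic fibroblasts (MEFs). A gene was taken as a member when its symbol in any of the 6 tables the authors deposited began with Hist1h, Hist2h, Hist3h, Hist4h, H2af, H3f3 or H1f. This gave 26 genes, read by 111 of the 132488 probes on the array and set here among 4413 named genes. Of these, 21 are replication-dependent histone genes and 5 are replacement histone genes. The tables list only probes past a threshold, so every member was named because at least 1 of its probes had passed one. A further 6 histone genes that the tables do not list were named through their RefSeq accessions and are given separately. The members' values in each sample come from the deposited table of signals, in which every probe has a value on every array.

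There were 4 groups of MEFs from 13.5-day embryos of mixed C57BL/6 and 129Sv/J background, all lacking p53 (p53-/-). Cells carrying E4F1+/flox served as controls and became E4F1 +/- once CRE had removed the floxed allele, and cells carrying E4F1-/flox became E4F1 -/-, called knockout here. All 4 groups were infected with a self-excising retrovirus encoding the CRE recombinase and collected 3 days later, so the controls carry CRE and a single working E4f1 copy. Both genotypes were studied in p53-/- MEFs and in p53-/- MEFs transformed by a retrovirus encoding Ha-RasV12, an activated Ras oncogene. Each group held 3 biological replicates, A, B and C, which the labels describe as independent, and each replicate was labelled with Cy3 and with Cy5. Every one of the 12 arrays paired knockout and control RNA of 1 replicate and 1 background. The comparisons ask what E4F1 does where p53 is absent.

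E4f1 itself, at its brightest probe, had log2 ratios of knockout over control of -1.99 in Ha-RasV12 cells (standard error 0.16, adjusted p = 0.000438, limma) and -1.28 in p53-/- cells (adjusted p = 0.0759, limma), with 3 of 3 replicates below control in each. This probe was above background in 3 of 6 knockout samples of Ha-RasV12 cells and in 2 of 6 of p53-/- cells, against all 6 control samples of each, so the sizes of these ratios rest partly on signals at background. The position of this probe relative to the floxed sequence was not analysed here. Channel medians lay between 6.11 and 6.64 (log2 signal). The 95th percentile of the 5000 random-sequence probes, used here as the background level, lay between 6.24 and 7.13. Replicate ratios correlated weakly over all probes, at 0.05 to 0.37 among Ha-RasV12 replicates and 0.08 to 0.20 among p53-/- replicates. The 2 dye-swapped arrays of a replicate correlated at 0.39 to 0.62 in Ha-RasV12 cells and at -0.07 to 0.02 in p53-/- cells. Of 11 fibroblast markers 7 were named on the array, and all 7 were above background in every sample. Epcam, an epithelial adhesion gene, was above background in all 6 Ha-RasV12 control samples and in 0 of 6 p53-/- control samples. Ptprc, the pan-leukocyte marker, was above it in at most 2 of 6 samples of any group. Other named markers were more widely present. In p53-/- controls the muscle genes Acta1 and Des, the adipocyte gene Fabp4 and the neural gene Map2 were above background in 6 of 6 samples. Pparg, an adipocyte gene, was above it in 5 of 6. In Ha-RasV12 controls Fabp4 and Map2 were above it in 6 of 6, Acta1 in 5, Pparg in 4 and Des in 0. In the Ha-RasV12 knockout, where the histone genes lay below control, fibroblast markers moved as well: Fn1 (fibronectin, 1.66) and Dcn (decorin, 2.88) rose and Col3a1 (type III collagen, -1.99) fell (adjusted p = 0.00421, 0.0133 and 0.00605, limma; log2 ratios), and the other 4 were not called. The mean log2 signal of the 7 ran from 10.45 to 11.69 over control and from 11.39 to 12.25 over knockout replicates. Of 22 markers of other cell types 7 were named, and 2 of these rose, Epcam by 0.86 and the muscle actin gene Acta1 by 1.14 (adjusted p = 0.024 and 0.0147, limma), with a mean over the 7 of 7.69 to 8.39 in control and 8.05 to 8.65 in knockout replicates. Over all probes 1.44% were called higher. All 7 fibroblast markers, and the other 7 except Ptprc, were named through the authors' tables, which list only probes past a threshold. Nothing is therefore read from how many markers moved. In p53-/- cells none of the 14 markers was called. The part of these changes in the histone values was not tested.

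Histones are the proteins around which DNA is wrapped. The core particle holds H2A, H2B, H3 and H4, and H1 binds the linker DNA between particles. Replication-dependent histone genes lie in clusters, are transcribed mainly in S phase, and most of their messages end in a stem-loop and not in a poly(A) tail. Replacement histones such as H3.3 and H2A.Z are made throughout the cell cycle from ordinary polyadenylated messages and are put into chromatin outside replication. Some clustered genes, H1f2, H2bc4 and H2bc21 among them, are also known to give polyadenylated messages. The RNA was amplified with a kit that primes on poly(A), so the signals of clustered genes may reflect their polyadenylated share. How large that share was in these cells was not tested. Changes in transcription, in 3' end processing and in the number of cells in S phase cannot be told apart in such signals.

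The starts of 22 of the 26 members were found in the RefSeq promoter table (build GRCm38.p6), and H2ax, H2bc4, H2bc21 and H3c7 had no entry there. The 150 bases before the annotated start are shown for 6 members, chosen because their values carry the results below: the linker histone gene H1f2, the H2B genes H2bc3 and H2bc9, the H3.3 genes H3f3a and H3f3b, and the H2A.Z gene H2az2. Capitals mark 4 motifs on either strand: CCAAT, a box common in histone promoters; TATAAA, the TATA box; ATTTGCAT, the octamer known from H2B promoters; and TGACGT, the core of ATF/CREB-type sites.
H1f2, chr13:23738657-23738806, plus strand: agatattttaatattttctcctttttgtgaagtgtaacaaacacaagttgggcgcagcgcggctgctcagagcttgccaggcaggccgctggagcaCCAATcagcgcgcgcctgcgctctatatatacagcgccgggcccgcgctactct
H2bc3, chr13:23746584-23746733, plus strand: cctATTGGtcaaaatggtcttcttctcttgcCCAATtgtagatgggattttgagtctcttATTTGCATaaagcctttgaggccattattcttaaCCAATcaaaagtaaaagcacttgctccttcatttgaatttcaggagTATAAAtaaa
H2bc9, chr13:23543445-23543594, minus strand: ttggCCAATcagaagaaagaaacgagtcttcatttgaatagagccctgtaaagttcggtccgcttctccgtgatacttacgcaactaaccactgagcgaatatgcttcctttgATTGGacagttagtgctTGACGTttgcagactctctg
H3f3a, chr1:180813606-180813755, minus strand: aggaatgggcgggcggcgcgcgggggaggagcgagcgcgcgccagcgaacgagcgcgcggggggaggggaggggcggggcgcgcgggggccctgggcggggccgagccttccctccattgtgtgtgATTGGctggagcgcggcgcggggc
H3f3b, chr11:116024505-116024654, minus strand: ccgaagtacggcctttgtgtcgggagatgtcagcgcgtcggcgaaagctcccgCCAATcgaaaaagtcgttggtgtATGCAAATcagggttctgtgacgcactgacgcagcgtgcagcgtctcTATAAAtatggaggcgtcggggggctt
H2az2, chr11:6444444-6444593, minus strand: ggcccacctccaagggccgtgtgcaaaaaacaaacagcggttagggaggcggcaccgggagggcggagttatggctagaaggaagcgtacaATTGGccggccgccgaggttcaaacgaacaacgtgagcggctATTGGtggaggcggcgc

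Over the 250 bases before the start, CCAAT was found in 18 of 22 member promoters and in 33.8% of all 32851 promoters of the table. At least 2 copies were found in 14 of 22 members and in 10.1% of all promoters. The octamer was found in 7 of 22 members and in 1.6% of all promoters, TATAAA in 8 of 22 and 12.4%, and TGACGT in 7 of 22 and 6.47%. H2bc3 carries the octamer and H2bc9 does not, and TGACGT stands in the stretch shown for H2bc9 and in none of the other 5 shown. These matches describe letters in the windows and show no binding.

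In Ha-RasV12 MEFs all 26 histone genes had a mean ratio below 0, with a median of -0.83 on the log2 scale, where the median over all probes was -0.01 and 50.8% of probes were below 0. In 23 of the 26 members each of the 3 replicates was below its control, against 14.9% of all probes. In 20 of the 26 every knockout replicate read below every control replicate, against 4.4% of all probes. With limma on 1 ratio per replicate, adjusted over all probes, 6 members fell: the H3.3 genes H3f3a and H3f3c, the H2A.Z gene H2az2, and the clustered genes H2bc21, H2ac19 and H3c15. Over the whole array 0.873% of probes were called lower. Of the 26 members 21 were listed as lower in threshold tables of this same contrast. Nothing is therefore read from any of these counts, of members below 0, without overlap or called, against the shares of all probes. No member was called without replicate B, without replicate C, or when Ha-RasV12 arrays were fitted alone (lowest adjusted p = 0.157), and the median was -0.59 without B and -0.95 without C. Without replicate A 5 members were called, 2 of them among the 6. The authors' deposited tables list more members, all as lower: 15 in the limma table, 8 in the SAM 1% list and 21 in the SAM 5% list, where 2.01%, 1.48% and 3.3% of the probes tested were listed as lower. A member counts as listed through any 1 of its probes, whereas the shares are of single probes. The SAM lists carry the rates in their titles, but the members' deposited q values ran from 0.0291 to 0.0507 in the 1% list and up to 0.0951 in the 5% list.

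**Figure D1:**
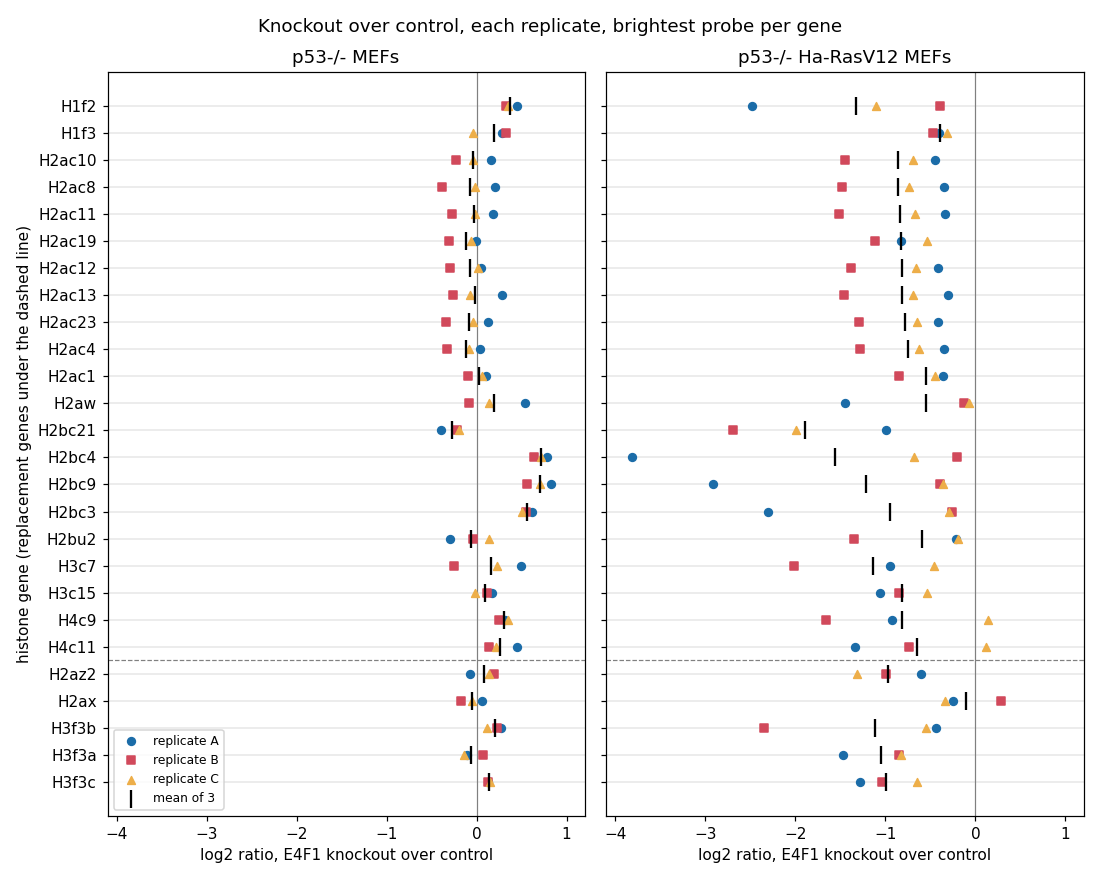
Log2 ratio of knockout over control for the brightest probe of each of the 26 histone genes, in p53-/- MEFs (left) and Ha-RasV12 MEFs (right); points are the 3 replicates and the black stroke their mean. In Ha-RasV12 cells every mean lies below 0 and replicates A and B spread widely, while p53-/- means lie between -0.27 and 0.72.

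The replacement genes come first because the messages of H3.3 and H2A.Z are polyadenylated. Which form of message the H2ax probes read was not tested. H3f3a, which encodes the replacement histone H3.3, read 14.99, 14.66 and 14.41 (log2 signal) in Ha-RasV12 control replicates A, B and C and 13.52, 13.81 and 13.59 in the knockout. The groups did not overlap. The gene fell 2.07-fold, by 1.05 in log2 units (standard error 0.17, adjusted p = 0.0146, limma), and its 6 probes lay between -1.07 and -0.93, each past the adjusted threshold. H3f3c, annotated as a further H3.3 gene, read 14.56, 14.66 and 14.49 in controls and 13.27, 13.62 and 13.84 in knockouts. It fell by 0.99 (standard error 0.16, adjusted p = 0.0147, limma), and because its probes may share target sequence with H3f3a the pair is not 2 separate measurements.

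H3f3b, the second H3.3 gene of mouse, had ratios of -0.43, -2.35 and -0.55 in replicates A, B and C, a mean of -1.11. Its standard error of 0.32 reflects replicate B, and it was not called (adjusted p = 0.125, limma). All 9 of its probes were below 0, between -1.25 and -0.89. The authors' deposited limma table listed the gene through 2 probes, the lower at -1.25.

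H2az2, which encodes the H2A.Z variant found around promoters, read 9.46, 10.12 and 10.00 in Ha-RasV12 controls and 8.86, 9.13 and 8.69 in knockouts, with no overlap. It fell by 0.97, 1.96-fold (standard error 0.17, adjusted p = 0.0212, limma), and all 3 of its probes were called. H2ax, the variant phosphorylated at DNA breaks, had a mean ratio of -0.10 (95% interval -0.48 to 0.27, limma) and replicate ratios of -0.25, 0.28 and -0.34. Its adjusted p was 0.858 (limma), and its 6 probes lay between -0.10 and 0.10.

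**Figure D2:**
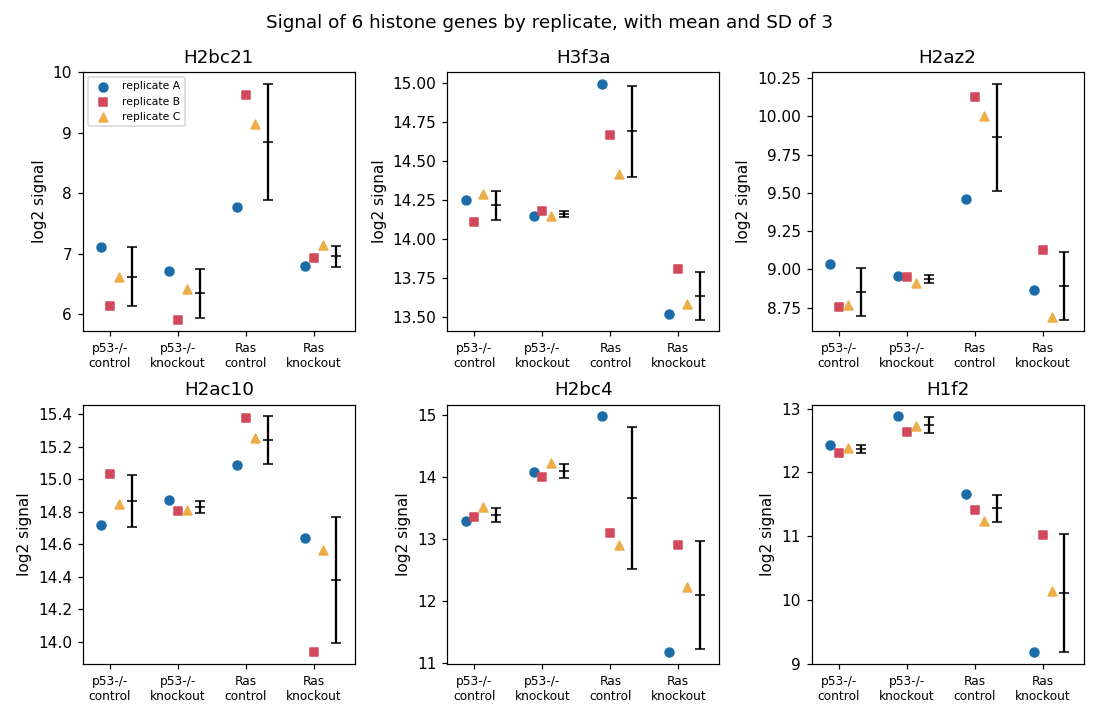
Log2 signal of 6 histone genes in each replicate of the 4 groups, with the mean and SD of 3 replicates beside the points. H2bc21, H3f3a and H2az2 were higher in every Ha-RasV12 control than in every Ha-RasV12 knockout, whereas for H2bc4 the lowest control (12.91) and the highest knockout (12.90) nearly met and replicate A held the widest gap.

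Of the 21 replication-dependent genes, 3 fell at their brightest probe: H2bc21, H2ac19 and H3c15, the members of the chromosome 3 cluster. With the mean over all probes of a gene none of the 3 was called (adjusted p = 0.0515, 0.0611 and 0.199, limma). The 16 members on chromosome 13 were not called at their brightest probes (limma), but their median ratio was -0.83, against -0.82 for the 3 on chromosome 3, and no difference between the clusters was tested. All 16, and 1 of the 2 on chromosome 11, had an unadjusted p below 0.05 in the lower direction, as 6.56% of all probes did, and nothing is read from this because most of them were listed in tables of this contrast. H2bc21, an H2B gene, read 7.78, 9.63 and 9.14 in Ha-RasV12 controls and 6.79, 6.94 and 7.15 in knockouts. It fell by 1.89, 3.71-fold (standard error 0.27, adjusted p = 0.00726, limma), and its other probes gave -1.05 and -0.50. Knockout signals at its brightest probe were near background, with 5 of 6 samples above it.

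H2ac19, an H2A gene, had ratios of -0.82, -1.12 and -0.54 in the 3 replicates and fell by 0.82 on average (standard error 0.16, adjusted p = 0.0344, limma). H3c15, an H3 gene that older tables list as a pseudogene, had ratios of -1.06, -0.85 and -0.54 and fell by 0.82 (standard error 0.16, adjusted p = 0.0299, limma). Its 2 other probes, 7.32 and 7.72 in mean log2 signal, gave -0.30 and -0.42. The 3 genes shared the direction in every replicate.

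The H2A genes of chromosome 13 gave nearly the same values as each other. The 7 genes H2ac4, H2ac8, H2ac10, H2ac11, H2ac12, H2ac13 and H2ac23 encode nearly the same protein and their probes can cross-hybridise, so they were read as a single signal. Their ratios lay between -0.45 and -0.30 in replicate A, between -1.52 and -1.28 in replicate B and between -0.74 and -0.62 in replicate C. The means ran from -0.86 to -0.75, a 1.68- to 1.82-fold difference, and adjusted p-values from 0.0649 to 0.104 (limma), so none was called. H2ac10, as an example, read 15.09, 15.38 and 15.26 in controls and 14.64, 13.93 and 14.57 in knockouts, without overlap. All 7 lay among the brightest probes, at or above the 99.6th percentile of mean signal, and whether the scanner saturated there was not tested. H2ac1, known for its expression in testis, gave -0.37, -0.85 and -0.45, and H2aw, on chromosome 11, gave -1.45, -0.13 and -0.07, neither of them called.

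H2B, H1 and H4 genes varied more between replicates. H2bc4 gave -3.81 in replicate A, -0.21 in B and -0.68 in C, H2bc9 gave -2.91, -0.39 and -0.36, and H2bc3 gave -2.31, -0.26 and -0.30. The linker histone gene H1f2 gave -2.48, -0.39 and -1.10, a mean of -1.33 (standard error 0.32, adjusted p = 0.0692, limma). These 4 genes had their steepest ratio in replicate A, and 15 of the 26 members had theirs in B. H1f2's 2 dimmer probes, at -1.37 and -1.25, had adjusted p-values of 0.0392 and 0.027 (limma). The control of replicate A was itself high for H2bc4, at 14.98 against 13.10 and 12.91 in B and C. H4c9 gave -0.93, -1.66 and 0.14, and H4c11 gave -1.34, -0.74 and 0.11, so that in both H4 genes replicate C lay above 0. A dimmer probe of H4c9 gave -0.95 with an adjusted p of 0.0424 (limma), and the other 5 probes of the gene were not called. H3c7, an H3 gene, gave -0.95, -2.01 and -0.46 and was above background in 2 of 6 knockout samples. H1f3 (-0.39) and the H2B gene H2bu2 (-0.59) were not called.

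Some members were not chosen on Ha-RasV12 values. H2bc3, H2bc4, H2bc9, H4c11 and H2ax were listed in p53-/- tables alone. All 5 were below 0 in Ha-RasV12 cells, and 4 of them had an unadjusted p below 0.05 (H2ax did not), against 6.56% of all probes in that direction. For H2bc3 this held at the brightest probe only. Its dimmer probes, 6.82 and 6.43 in mean log2 signal, gave 0.11 and 0.06, and its mean over all probes was -0.26 (adjusted p = 0.543, limma). None of the 5 passed adjustment over all probes (adjusted p = 0.204 to 0.858, limma). Without replicate A the means of H2bc3, H2bc4 and H2bc9 were -0.28, -0.44 and -0.37. These H2B genes were listed at their brightest probes, and the fit shares its spread between backgrounds. Steady p53-/- ratios (SD 0.07 for H2bc4, against 1.96 in Ha-RasV12 cells) thus narrow the spread used. With Ha-RasV12 arrays fitted alone H2bc4 had an adjusted p of 0.62 (limma). Nothing is therefore read from the count of 4. Of the 44 member probes in none of the 6 tables, 39 were below 0 in Ha-RasV12 cells with a median of -0.54, against 50.8% of all probes below 0. They share genes with listed probes and so are not independent of them. Most belong to genes listed as lower in Ha-RasV12 cells through another probe, so nothing is read from this count.

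**Figure D3:**
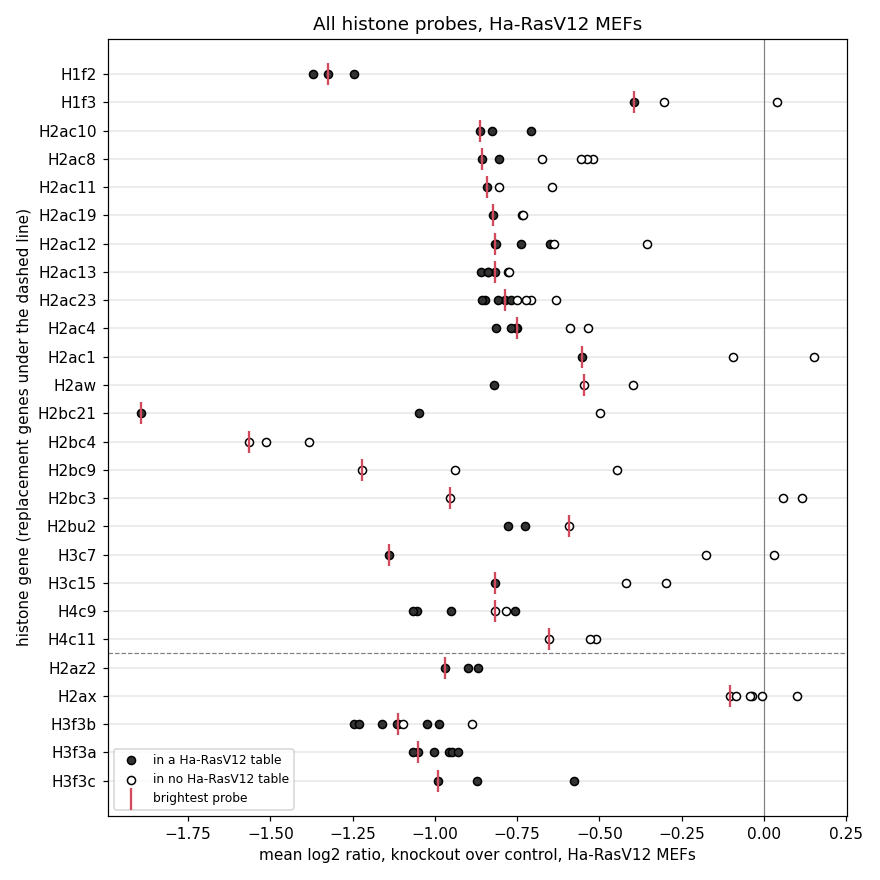
Mean log2 ratio of knockout over control in Ha-RasV12 MEFs for each of the 111 histone probes, by gene; filled points were listed in a Ha-RasV12 table, open points were not, and the red stroke is the brightest probe. Of the probes 105 lie below 0, and open points lie mostly to the right of filled ones of the same gene.

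The 26 genes were also compared by dye. With knockout RNA in Cy5, all 26 had a mean ratio below 0 over 3 arrays (median -0.71), and with knockout RNA in Cy3 all 26 did as well (median -1.02). In p53-/- cells 4 of 26 were below 0 with knockout RNA in Cy5 and 15 of 26 with it in Cy3 (medians 0.20 and -0.11). The medians of both backgrounds were lower by a similar amount with knockout RNA in Cy3. Only the p53-/- median, which lay near 0, changed sign.

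**Figure D4:**
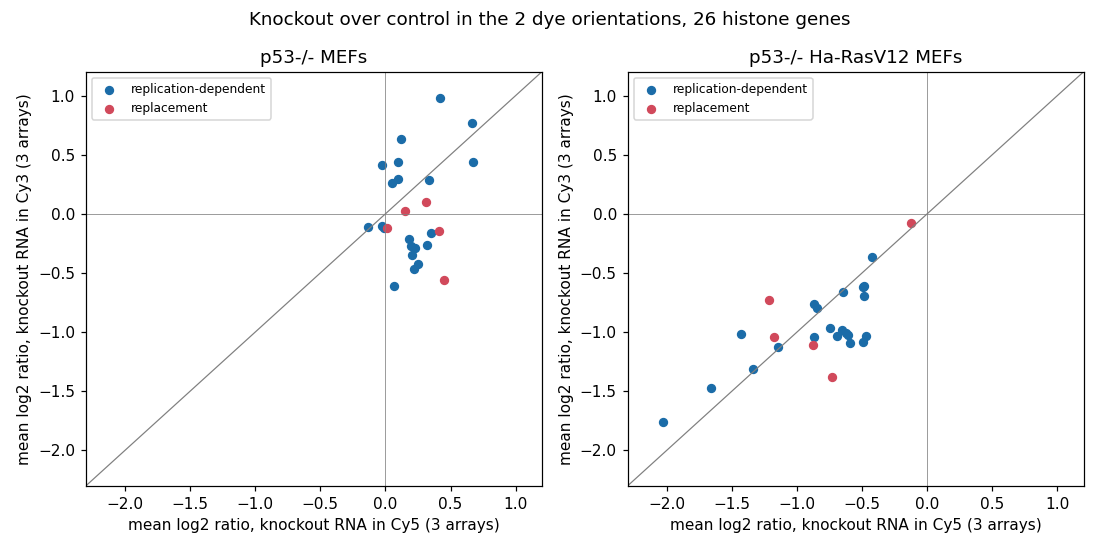
Mean log2 ratio over 3 arrays with knockout RNA in Cy5 (horizontal axis) and over 3 arrays with knockout RNA in Cy3 (vertical axis), 1 point per histone gene, with the line of equality. Ha-RasV12 points all lie in the lower left corner, and p53-/- points spread on both sides of 0 vertically.

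In p53-/- MEFs no histone gene was called (limma), and 12 of 26 were below 0, against 49.8% of probes. In the main fit none had an unadjusted p below 0.05 at its brightest probe (1.62% of probes had one with a lower and 1.36% with a higher value). Dimmer probes did, in H2ax (0.00519 and 0.0117, lower, limma) and in H4c11 (0.0144, higher, limma). The median ratio of the 26 was 0.06, against 0.00 for all probes. In that comparison 0.0174% of probes were called lower and 0.00377% higher. The highest values were those of the H2B genes H2bc4, H2bc9 and H2bc3. H2bc4 read 13.30, 13.36 and 13.51 in controls and 14.08, 14.00 and 14.23 in knockouts, so that every knockout replicate was above every control. The ratios were 0.79, 0.64 and 0.72, a 1.64-fold difference. With the spread shared with the more variable Ha-RasV12 arrays its standard error was 0.54 (adjusted p = 1, limma), and with p53-/- arrays fitted alone the unadjusted p was 0.000252 and the adjusted p 0.12 (limma). That fit called 0.0249% of probes higher and no histone gene. In it H2bc9, H2bc3, H1f2 and H4c9 also had an unadjusted p below 0.05, all higher (0.000371, 0.00128, 0.0121 and 0.0289, limma). Over the array 5731 of 132488 probes were higher at that p.

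H2bc9 had ratios of 0.83, 0.56 and 0.71 and H2bc3 ratios of 0.61, 0.55 and 0.51, neither of them called (fitted alone, adjusted p = 0.153 and 0.286, limma). The dimmer probes of H2bc3 gave mean ratios of 0.22 and -0.29, and those of H2bc9 gave 0.48 and 0.05. In the authors' deposited limma table these 3 genes were listed as higher, at 0.72, 0.70 and 0.56 with adjusted p-values of 0.00689, 0.0462 and 0.0442. That table lists 0.183% of the probes it tested as higher and 0.374% as lower, the latter with 1 member, H2ax. In the authors' SAM 1% list there were 1 higher and 1 lower member (0.146% and 0.422% of probes), and in the SAM 5% list 4 and 1 (0.411% and 0.66%). The members' deposited q values reached 0.0823 in the SAM 1% list (H2ax) and 0.119 in the SAM 5% list (H4c11). In 7 members, H3f3c, H1f2, H2bc3, H2bc4, H2bc9, H4c11 and H4c9, every knockout replicate read above every control, against 3.06% of all probes. Of these, H2bc3, H2bc4, H2bc9 and H4c11 are members only because p53-/- tables listed them as higher, so nothing is read from the count. H1f2 gave 0.45, 0.33 and 0.35, and H4c9 gave 0.32, 0.25 and 0.35. H2ax, listed as lower in the authors' deposited table at -0.59, rests on a single pair of probes. Of its 6 probes 2 gave -0.59 and -0.48 and the other 4 lay between -0.08 and -0.02. H2bc21 was above background in 2 of 6 control and 1 of 6 knockout samples in p53-/- cells, so that its ratio of -0.27 carries little information.

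The knockout effect was then compared between backgrounds. For all 26 genes the Ha-RasV12 ratio was the lower one, with a median difference of -0.87. None of the differences was called (limma, lowest adjusted p = 0.0965, for H3f3c at -1.13, 95% interval -1.64 to -0.61), and 0.429% of probes were called in that test. At an unadjusted p below 0.05, 23 of 26 differed in this direction, against 4.05% of probes, but most members were chosen on the Ha-RasV12 contrast. In 6 genes, H3f3b, H3f3c, H1f2, H2bc3, H2bc4 and H2bc9, each p53-/- replicate was above 0 and each Ha-RasV12 replicate below it, a pattern shown by 2.36% of probes. H3f3b, H3f3c and H1f2 are members because they were listed as lower in Ha-RasV12 cells. H2bc3, H2bc4 and H2bc9 are members because they were listed as higher in p53-/- cells, so nothing is read from this count. H2bc4 differed by -2.28 (95% interval -4.00 to -0.57, adjusted p = 0.377, limma) and H2bc9 by -1.92 (-3.24 to -0.60). H2ax differed by -0.05 (-0.58 to 0.48).

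Control cells of the 2 backgrounds were set side by side across arrays. H2bc21 was the only member called: it read 7.11, 6.13 and 6.62 in p53-/- controls and read higher by 2.23 in Ha-RasV12 controls (standard error 0.45, adjusted p = 0.0391, limma). It was above background in 2 of 6 p53-/- and in 6 of 6 Ha-RasV12 control samples, so the size of this difference rests on p53-/- signals mostly at background. Of all probes 0.666% were called higher and 1.82% lower, and the median probe was shifted by -0.13. H2az2 was higher by 1.01 (adjusted p = 0.0688, limma) and H1f2 lower by 0.93 (adjusted p = 0.0521, limma), neither past the threshold. H2bc21's call was lost without replicate B, without replicate C and with the mean over all its probes. These controls also enter the knockout ratios, so a high control and a low ratio in Ha-RasV12 cells are not separate observations.

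Genes that supply the clustered histones with transcription, 3' end processing, chaperones and replication gave no call in either background. Of 81 listed genes 18 had a named probe, and in Ha-RasV12 cells 9 were below 0 and 9 above, with 3 and 5 at an unadjusted p below 0.05 (limma), where 6.56% of all probes were lower and 7.49% higher at that p. The authors' deposited limma table listed 3 as lower and 1 as higher. All of the 18 but Srrt and Uhrf1 were named through the authors' tables, which list only probes past a threshold. Nothing is therefore read from these counts against the shares of all probes, and the unnamed genes were not measured here. Fen1, the flap endonuclease of lagging-strand synthesis, gave -0.37, -1.27 and -0.78 (adjusted p = 0.0585, limma). Tyms, thymidylate synthase, gave -0.82, -2.37 and -0.40 (adjusted p = 0.0918, limma), and Asf1a, a histone H3-H4 chaperone, gave -0.41, -1.10 and -0.53 (adjusted p = 0.0797, limma). In all 3 the steepest ratio was in replicate B. Mki67, the proliferation marker, was above control in 3 of 3 replicates, at 0.48, 0.30 and 0.27 (adjusted p = 0.32, limma). The other genes higher at an unadjusted p below 0.05 were Cpsf1, Cstf2 and Upf1 (transcription and 3' end processing) and Atrx (chaperones). Their mean ratios were 0.57, 0.53, 0.56 and 0.41 (adjusted p = 0.191 to 0.326, limma). Median ratios were 0.55 for transcription and 3' end processing, 0.21 for chaperones and -0.17 for replication. Whether the number of cells in S phase moved with the histone signals was not tested.

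Of 32 genes next to the clusters 9 had a named probe. Most of the 9 were also named through the authors' tables, so nothing is read from how many of them were called. Prss16, a thymic protease gene beside the chromosome 13 cluster, was not above background in any Ha-RasV12 control sample (mean 5.64) and was above it in 6 of 6 knockout samples (mean 7.24), at least 1.63-fold higher (adjusted p = 0.0109, limma). The bound sets each control sample at the higher of its background level and its own signal. Otud7b, a deubiquitinase gene beside the chromosome 3 cluster, had ratios of -0.61, -0.76 and -0.68 and fell by 0.68 (standard error 0.14, adjusted p = 0.0386, limma). Hfe, the hemochromatosis gene, and Abt1, a ribosome assembly factor, had ratios of -0.82 and -0.61 with adjusted p-values of 0.0649 and 0.0648 (limma). Neighbours thus lay on both sides of 0 in Ha-RasV12 cells, 4 below and 5 above. Prss16 lost its call without replicate C (adjusted p = 0.133, limma), and Otud7b lost it without any 1 of the replicates (0.0866, 0.192 and 0.306 without A, B and C, limma).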

How the data were processed

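Amplified RNA of 24 samples was hybridised on 12 arrays in 2 colours. Per the submitters' processing notes limma was used, and no source used here states the background correction or normalization. The deposited signal intensities are on a linear scale. Their log2 values gave the log2 fold changes in the authors' deposited limma tables to within 4.8e-06, which settles scale and direction. The authors' deposited t and SAM statistics (scores) and p-values were used only as deposited. The SAM standard errors equal those of 6 separate array ratios, so these tables count dye-swapped arrays as separate.

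Here the 2 arrays of a replicate were averaged to 1 log2 ratio, knockout minus control, and limma 3.58.1 in R 4.3.3 was fitted to 3 ratios per background, with p-values adjusted by Benjamini-Hochberg over 132488 probes (threshold 0.05). Control cells were compared on replicate means. The array pairs knockout and control of 1 replicate, which is the replicate block of the main fit. Over all probes, same-letter control and knockout samples deviated from their group means with correlations of 0.59 to 0.63 in p53-/- and -0.06 to 0.49 in Ha-RasV12 cells. No probe's level was set against another's, and a gene is its brightest probe over all 24 samples. Probe names came from the tables' accessions or RefSeq (17198 probes, 13% of the array). Members past the threshold, or in a deposited limma table, are given by replicate. Members and lists were chosen with earlier results of these data known. The fit was tested on simulated data. Python 3.11.15 did the rest.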

Additional observations from a re-analysis of the deposited data

Results flagged for a closer look

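Within each group of 6 samples, a single sample standing far from the other 5 was looked for in the 26 histone genes (brightest probe). Of 104 such tests 9 were positive, and chance gives about 1 in 20. Of the 9, 5 lay in Ha-RasV12 knockout cells. In the replicate B sample labelled with Cy3, 4 of the near-identical H2A genes read low: H2ac12 at 13.27 (others 14.43 to 14.95), H2ac13 at 13.37 (14.42 to 15.04), H2ac23 at 13.23 (14.43 to 15.05) and H2ac8 at 13.24 (14.25 to 14.82). Since their probes can cross-hybridise, these 4 are close to 1 observation, and this sample holds part of the steep replicate B ratio of these genes. H2aw read 8.25 in the replicate A sample labelled with Cy3 (others 8.63 to 8.80).

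In p53-/- cells H3c15 was low in replicate B, at 9.40 in the control labelled with Cy5 (others 10.65 to 11.27) and at 9.27 in the knockout labelled with Cy3 (others 10.86 to 11.51). Both samples were on the same array, so their ratio is little affected. H2ax read 9.55 (others 10.34 to 10.56) and H3f3b 14.15 (others 14.48 to 14.67) in the knockout sample of that array.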

How the results depend on the processing

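With a median of -0.83 in Ha-RasV12 cells, the histone genes stayed below 0 under all alternatives tried for it, between -0.59 and -0.95 when 1 replicate was left out. In p53-/- cells the median of 0.06 became 0.20 with only the arrays that had knockout RNA in Cy5 and -0.11 with only those that had it in Cy3. Among single genes the p53-/- value of H3f3a became 0.45 on the Cy5 arrays alone (adjusted p = 1). Of 312 Ha-RasV12 values of single genes under alternatives 1 changed sign (H2ax without replicate C), and of 312 p53-/- values 26 did, in 16 genes.

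The count of called members in Ha-RasV12 cells was 6. In the fit with no replicate block it was 3, with each array as a separate ratio 22, with only Cy5 knockout arrays 2, with each background fitted alone 0, and with the mean over all probes of a gene 3. Leaving out a replicate gave 0 to 5. The authors' limma table lists 15 and the SAM list named 5% lists 21. In p53-/- cells the count was 0 in every fit run, and the authors' limma, SAM 1% and SAM 5% tables list 4, 2 and 5.

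Differences between backgrounds gave 0 calls, 10 with separate arrays and 0 to 1 when a replicate was left out. Between control cells 1 gene was called, 2 with quantile normalization or with bright probes only, 1 other gene (H1f2) with the mean over probes, and 0 to 4 without a replicate. Supply genes had 0 calls in Ha-RasV12 cells, 5 with separate arrays, 1 with Cy5 knockout arrays, 1 with the mean over probes and 0 to 2 without a replicate; the authors' limma, SAM 1% and SAM 5% tables list 4, 3 and 15 of them, and the SAM 5% table lists 1 in p53-/- cells. Cluster neighbours had 2 calls in Ha-RasV12 cells, 0 to 3 without a replicate and 4, 4 and 7 in the authors' tables, and 0 calls in p53-/- cells against 1 in both the limma and SAM 5% tables. The cause of these shifts was not tested. Arrays and replicates are few, and probes near background limit H1f3, H2bu2, H2bc21 and H3c7.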

Other observations

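The 6 histone genes that the tables do not list, H2ab1, H2al1a, H2al1k, H2al1o, H2bc23 and Macroh2a3, were mostly near background. In Ha-RasV12 cells their ratios lay between -0.46 and 0.02, 4 of the 6 were below 0, and none was called (limma; 0 at an unadjusted p below 0.05). Macroh2a3, above background in 5 of 6 samples of each Ha-RasV12 group, gave 0.07, -0.95 and -0.10.

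Named genes of chromosome 13 other than histones were also lower on the whole in Ha-RasV12 cells. Of 146 such genes 96 were below 0, with a median of -0.39, where the 4260 named non-histone genes of all chromosomes had a median of 0.22. Of the 146, 14 were called lower and 9 higher (limma). In p53-/- cells their median was -0.03. Named genes are mostly those of the threshold tables, so these medians describe that selection, and no test was made.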
